A study of Homo sapiens with 6 samples.

Results

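The cytosolic ribosomal protein genes encode the proteins of the large (60S) and small (40S) subunits of the ribosomes that work in the cytoplasm. They were taken from the gene table by symbol and biotype: protein-coding genes named RPL or RPS with a number and, where present, the letters A, X or L, together with RPLP0, RPLP1, RPLP2 and RPSA. This gave 85 genes of 58735, of which 46 belong to the 60S subunit and 31 to the 40S subunit. The other 8 are paralogs with L in the name (RPL3L, RPL7L1, RPL10L, RPL22L1, RPL26L1, RPL36AL, RPL39L and RPS27L) and were kept apart. FAU, which encodes a ribosomal protein fused to a ubiquitin-like sequence, and RACK1 do not carry such names and were followed beside the 85 genes.

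RNA was sequenced from SW480, an established line of human colorectal cancer cells. Cells in 3 libraries had received an siRNA against ITGB4, the integrin beta 4 gene (si_ITGB4), and cells in the other 3 a negative control siRNA (si_NC). All 6 libraries carry the genotype label WT, and the series calls the libraries of a group biological replicates without saying whether cultures or days were shared. The libraries were made on poly-T beads, and the labels name neither the siRNA sequence, nor the time after transfection, nor the strand setting.

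A ribosome holds 1 copy of nearly every ribosomal protein, and a proliferating cancer cell spends a large part of its transcription and translation on making them. Human ribosomal protein mRNAs typically begin with a cytosine followed by an uninterrupted run of pyrimidines, the 5′ terminal oligopyrimidine (TOP) tract. Through this tract and the binding protein LARP1 their translation follows the activity of mTORC1, a growth-controlling kinase complex. Most of the genes also have processed pseudogenes, copies of its mRNA inserted elsewhere in the genome.

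The start of the mRNA is shown first for 4 paralog pairs, since this is where a paralog with L can differ from its parent before any level is compared. The windows run from 15 bases before the first transcribed base to the 15th transcribed base, on the strand of the gene, from the RefSeq annotation of GRCh38.p14. Capitals mark an unbroken pyrimidine run of at least 5 bases that begins with C at the first transcribed base, which is called a TOP start below. Letters all in lower case mean that no such run begins there.
RPL22L1 (chr3:170870181-170870210, minus strand): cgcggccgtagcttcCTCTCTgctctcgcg
RPL22 (chr1:6199581-6199610, minus strand): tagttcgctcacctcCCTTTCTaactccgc
RPL26L1 (chr5:172958714-172958743, plus strand): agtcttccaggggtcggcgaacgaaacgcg
RPL26 (chr17:8383179-8383208, minus strand): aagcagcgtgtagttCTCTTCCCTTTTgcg
RPL36AL (chr14:49620612-49620641, minus strand): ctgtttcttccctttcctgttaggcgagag
RPL36A (chrX:101390996-101391025, plus strand): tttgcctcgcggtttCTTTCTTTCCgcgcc
RPS27L (chr15:63157463-63157492, minus strand): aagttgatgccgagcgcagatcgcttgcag
RPS27 (chr1:153990747-153990776, plus strand): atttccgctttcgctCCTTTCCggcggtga
All 4 parents had a TOP start in these windows, and of the 4 paralogs RPL22L1 had one. In RPL36AL a run of 3 pyrimidines began at the annotated first base, with further pyrimidines directly before it. Its lack of a TOP start therefore rests on where the first base was annotated.

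Across the RefSeq table, 68 of the 85 genes had an entry, and 47 of the 68 (69.1%) had a TOP start. The share was 28 of 38 for the 60S genes, 18 of 24 for the 40S genes and 1 of 6 for the paralogs with L. For comparison, 1404 of all 27305 genes in the table (5.14%) had one, as did 1429 of all 35116 promoter entries (4.07%). The search covered the sense strand at the annotated first base alone, so a start annotated a base away can count as none. A gene with several annotated starts counted if any of them was a TOP start.

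The TOP starts of 5 genes named below with their values are shown to let their tracts be compared.
RPLP0 (chr12:120201097-120201126, minus strand): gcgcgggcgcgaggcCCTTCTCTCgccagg
RPL35 (chr9:124861943-124861972, minus strand): agccccgcctacttcCTCTTTCCCTCggag
RPL38 (chr17:74203663-74203692, plus strand): aacggaagtctcgttCTTTTTCgtcctttt
RPS19 (chr19:41860240-41860269, plus strand): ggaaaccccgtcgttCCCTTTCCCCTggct
RPS6 (chr9:19380222-19380251, minus strand): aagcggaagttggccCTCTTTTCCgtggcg
Their runs were 9, 11, 7, 11 and 9 bases long in this order. RPS29, whose fold change was the most negative of the 81 tested in the fit of all 6 libraries, had no TOP start at its annotated first base.
RPS29 (chr14:49598696-49598725, minus strand): ccccgagcgcgcagctggcagcggtggttg

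Expression is given as FPKM, the authors' unit, in which the fragments of a gene are divided by its length in kilobases and by the depth of the library. The libraries held 13715266 to 15496274 reads as recovered from these values, and mitochondrially encoded genes took 4.70% to 5.49% of them. Of 9 colon epithelium markers 5 had a mean of at least 1 FPKM, led by KRT18 (567 FPKM) and KRT8 (486), while the differentiation markers KRT20, CDX1 and LGALS4 were below 0.1 FPKM and VIL1 was at 0.706. Fibroblast, endothelial and leukocyte markers were below 1 FPKM in 14 of 14 cases. ITGB4 itself, on chromosome 17 (75721328 to 75757818), had 41.1, 38.1 and 37.9 FPKM in the si_ITGB4 libraries, against 74.3, 63.8 and 69.8 FPKM in the si_NC libraries. Its log2 fold change was -0.81 (SE 0.0658, limma adjusted p = 0.0148, lower in 3 of 3 libraries). That call is lost when si_ITGB4 replicate 1, 2 or 3 (adjusted p = 0.0709, 0.137 and 0.0968) or si_NC replicate 3 (0.0996) is left out, and when genes below 1 FPKM are tested too (0.0618).

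Together the 85 genes took 4.09%, 4.18% and 4.29% of the reads in the si_ITGB4 libraries, against 4.29%, 4.15% and 4.15% in the si_NC libraries. Their summed level was 14055, 14491 and 14938 FPKM with the ITGB4 siRNA, against 14981, 14483 and 14335 FPKM with the control siRNA. The groups overlapped, and their means of 14495 ± 441 and 14599 ± 338 FPKM (SD, n = 3 each) differed by -0.718%. On the log2 scale that difference was -0.01, and it turned to 0.01 without si_ITGB4 replicate 1 or si_NC replicate 1 and was -0.03 without si_ITGB4 replicate 3. The 60S genes summed to 8480 ± 253 FPKM with the ITGB4 siRNA and 8548 ± 201 with the control siRNA, and the 40S genes to 5861 ± 181 and 5893 ± 136. In bulk RNA, fewer cells of a type and less RNA per cell cannot be told apart, and a library scaled to its own depth does not show the amount of RNA per cell.

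Ribosomal protein genes were among the abundant transcripts, with 54 of 85 at 100 FPKM or more and a median of 130 FPKM. The highest was RPL7A, a 60S protein, with 658, 688 and 693 FPKM in si_ITGB4 and 695, 699 and 679 FPKM in si_NC libraries. RPS2, which lines the mRNA entry channel of the 40S subunit, followed with 625, 603 and 591 FPKM in si_ITGB4 and 676, 559 and 582 FPKM in si_NC libraries. RPL41, the smallest ribosomal protein with a coding sequence of 75 bases, had 550, 578 and 641 FPKM with the ITGB4 siRNA and 616, 617 and 554 FPKM with the control siRNA. The groups overlapped for all 3 genes. RPL13A, which also has a role in silencing inflammatory mRNAs outside the ribosome, had 576, 555 and 574 FPKM with the ITGB4 siRNA and 606, 529 and 554 FPKM with the control siRNA, again with overlap. Its fold change was 0.02 (log2), and those of RPL7A, RPS2 and RPL41 were -0.02, 0.01 and -0.02.

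**Figure D1:**
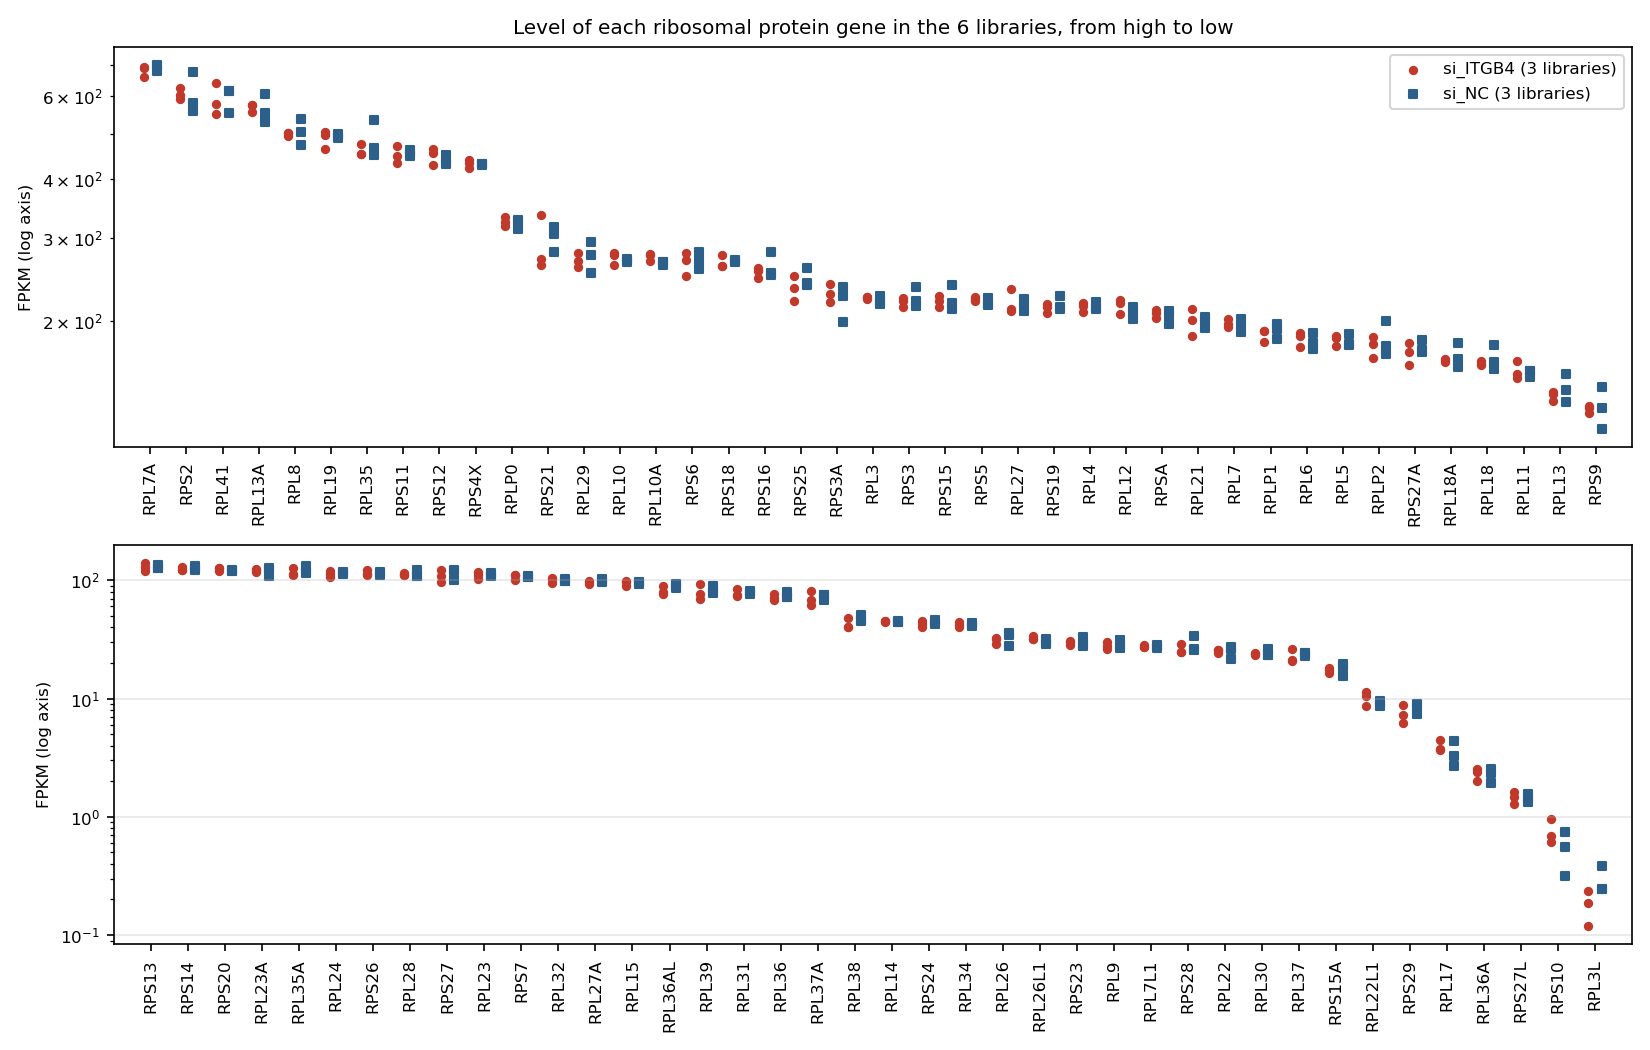
Level in FPKM (log axis) of 81 ribosomal protein genes in the 3 si_ITGB4 libraries (red circles) and the 3 si_NC libraries (blue squares), ordered by mean level. RPL39L and RPL10L, at 0 in all 6 libraries, are among the 4 of 85 genes that are not drawn. For nearly all genes the points of both groups lie among each other, from 685 FPKM on average for RPL7A down to 0.235 for RPL3L.

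The comparison asked whether lowering ITGB4 changed the level of these mRNAs. Genes with a mean of at least 1 FPKM were tested, 12871 in all, which included 81 of the 85 genes: 46 of the 60S, 30 of the 40S and 5 of the paralogs with L. RPS10 (0.646 FPKM) and RPL3L (0.235 FPKM) were below that level, and RPL39L and RPL10L had no read in any library. No ribosomal protein gene was called changed by limma at an adjusted p under 0.05 (0 of 81, against 0.0466% of all tested genes, which is 6 genes). At an unadjusted p under 0.05 the count was 0 of 81, against 5.83% of all tested genes. The limma-voom fit on recovered reads also called 0 of 81, against 0.202% of all tested genes, and 0 of 81 at an unadjusted p under 0.05, against 5.82%.

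Fold changes were small in both subunits. The median log2 fold change over the 81 genes was -0.01, with 32 genes above 0 and 49 below (background 51.5% below 0), and the median over all tested genes was 0.00. It was -0.02 for the 60S genes (19 above 0 and 27 below), -0.01 for the 40S genes (10 and 20) and 0.00 for the paralogs with L (3 and 2). The most negative value was -0.15 (RPS29) and the most positive 0.17 (RPL17). The 95% confidence interval stayed between 20% lower and 25% higher for 76 of the 81 genes, against 8731 of the 12871 tested genes. The median interval reached 0.13 (log2) to either side, or 9.43%, against 0.19 (14.3%) over all tested genes. The sign of the median depended on single libraries: it was 0.01 without si_ITGB4 replicate 1 and 0.00 without si_NC replicate 1, on the positive side in both, and -0.04 without si_ITGB4 replicate 3.

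**Figure D2:**
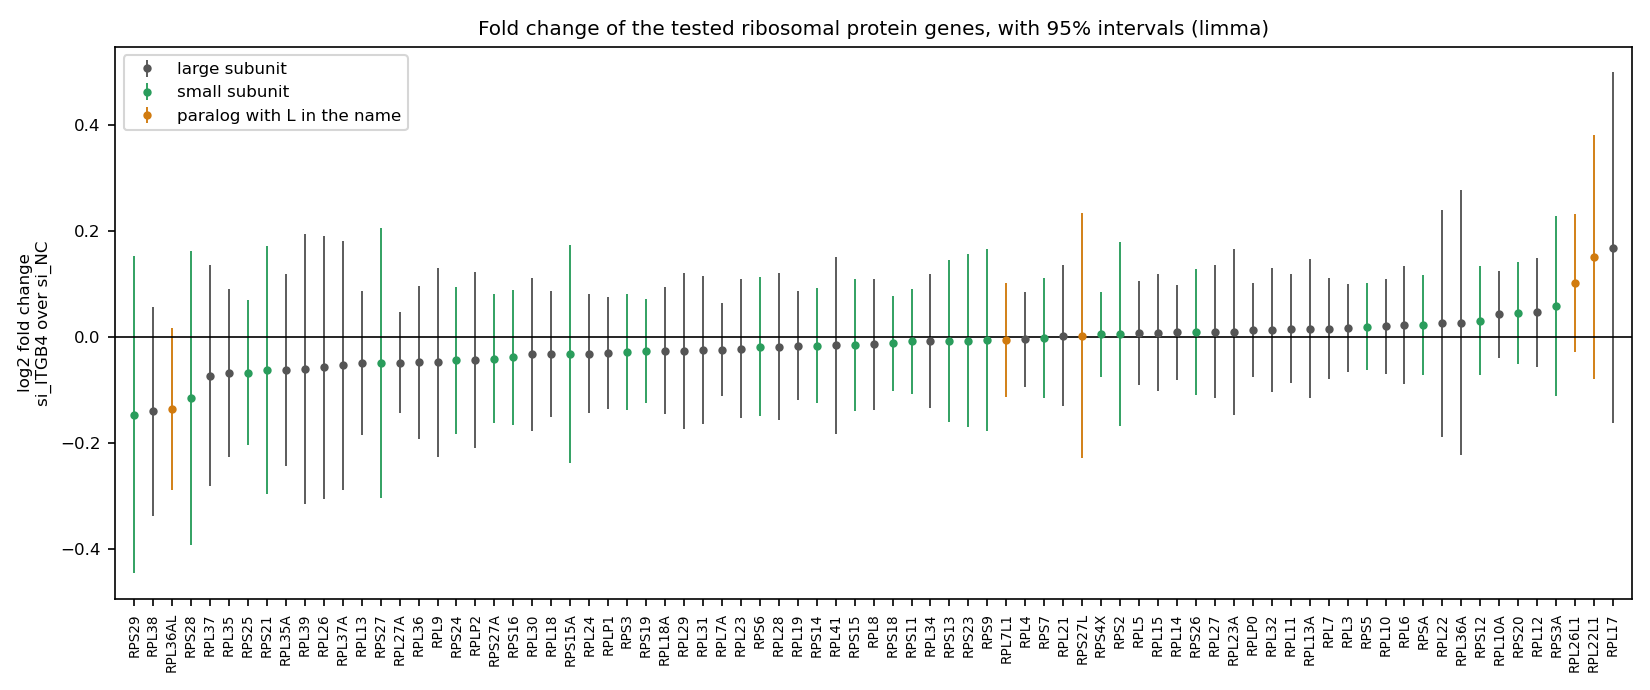
Log2 fold change (si_ITGB4 over si_NC, of FPKM + 1) of 79 of the 81 tested ribosomal protein genes with 95% confidence intervals from limma, ordered from -0.15 (RPS29) to 0.17 (RPL17). Grey marks 60S genes, green 40S genes and orange the paralogs with L, and all 79 intervals drawn include 0.

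Among genes below 0 the strongest by limma was RPL36AL, a paralog with L (described with its parent below), at -0.14 (SE 0.064, limma adjusted p = 0.92). RPL38, a small 60S protein needed in mice for the translation of certain Hox mRNAs, had 40.1, 40.6 and 47.9 FPKM in si_ITGB4 libraries, against 51.0, 45.9 and 45.0 FPKM in si_NC libraries. The third si_ITGB4 library lay among the controls, and the fold change was -0.14 (SE 0.083, adjusted p = 0.976 by limma). RPS29, a small zinc-binding protein of the 40S head, had 6.17, 7.29 and 8.90 FPKM with the ITGB4 siRNA, against 9.03, 8.49 and 7.38 FPKM with the control siRNA, and overlapped likewise. Its fold change was -0.15 (95% interval -26.6% to 11.2%), and it was -0.03 without si_ITGB4 replicate 1 and -0.27 without si_ITGB4 replicate 3.

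RPL27A had 93.4, 96.0 and 98.6 FPKM in si_ITGB4 libraries, against 102, 97.4 and 98.9 FPKM in si_NC libraries. RPS25, a 40S protein required by several viral internal ribosome entry sites, had 220.2, 235 and 249 FPKM with the ITGB4 siRNA, against 241, 259 and 238 FPKM with the control siRNA. RPL35, which sits near the exit of the nascent chain tunnel, had 451, 453 and 476 FPKM in si_ITGB4 libraries, against 533, 451 and 466 FPKM in si_NC libraries. All 3 genes overlapped between the groups, with fold changes of -0.05, -0.07 and -0.07. The value of RPL35 rested on si_NC replicate 1, the highest of its 6 libraries: without it the fold change was 0.00, on the positive side.

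Among genes above 0, RPL10A was the 1 gene of 81 whose groups did not overlap (background 11.1% in either direction, 5.75% for higher). It encodes a protein of the L1 stalk, which releases spent tRNA from the ribosome. It had 268, 277 and 276 FPKM in si_ITGB4 libraries, against 267, 264 and 267 FPKM in si_NC libraries, and its fold change was 0.04 (SE 0.034, limma adjusted p = 0.998). By the exact permutation test p was 0.1, and 3 libraries against 3 cannot reach a lower value. No gene was lower without overlap (0 of 81, background 5.36%).

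RPL17, a 60S protein at the tunnel exit, had the largest positive fold change in the fit of all 6 libraries, 0.17 (SE 0.139), on 99 to 167 reads per library. It was 0.05 without si_NC replicate 1 and 0.31 without si_NC replicate 3. It had 3.75, 4.43 and 3.70 FPKM with the ITGB4 siRNA, against 2.71, 3.28 and 4.36 FPKM with the control siRNA, and its interval ran from -10.6% to 41.4%. RPS20, of the 40S head, had 120, 128 and 126 FPKM in si_ITGB4 libraries, against 119, 121 and 122 FPKM in si_NC libraries. RPL12, at the base of the P stalk, had 207, 218 and 221 FPKM with the ITGB4 siRNA, against 214, 209 and 202 FPKM with the control siRNA. These 3 genes overlapped between the groups, and the fold changes of RPS20 and RPL12 were both 0.05 (SE 0.040 and 0.044).

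The P stalk recruits and activates the elongation factors. Its base protein RPLP0 had 319, 332 and 325 FPKM in si_ITGB4 libraries, against 326, 313 and 327 FPKM in si_NC libraries. The stalk proteins RPLP1 and RPLP2 averaged 187 ± 6.01 and 177 ± 9.20 FPKM with the ITGB4 siRNA, and 191 ± 6.80 and 182 ± 15.4 FPKM with the control siRNA (SD, n = 3 each). Fold changes of the 3 genes were 0.01, -0.03 and -0.04, with intervals inside -13.5% to 8.91%.

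RPL5 and RPL11, which with 5S ribosomal RNA can bind MDM2 and stabilise p53, stayed within narrow ranges. RPL5 had 176, 184 and 186 FPKM in si_ITGB4 libraries, against 178, 188 and 179 FPKM in si_NC libraries. RPL11 had 152, 154 and 164 FPKM with the ITGB4 siRNA, against 157, 156 and 152 FPKM with the control siRNA. The intervals were -6.10% to 7.61% for RPL5 and -5.87% to 8.51% for RPL11.

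Of the 40S proteins with roles outside the decoding centre, RPS6, the substrate of the S6 kinases downstream of mTORC1, had 249, 269 and 279 FPKM in si_ITGB4 libraries, against 269, 280.3 and 258 FPKM in si_NC libraries. RPSA, also known as a laminin receptor precursor, had 208, 211 and 203 FPKM with the ITGB4 siRNA, against 209.9, 197 and 205 FPKM with the control siRNA. RPS19, the gene most often mutated in Diamond-Blackfan anaemia, had 208, 214 and 217 FPKM with the ITGB4 siRNA, against 226, 212 and 214 FPKM with the control siRNA. The groups overlapped in each case, and the fold changes were -0.02, 0.02 and -0.03.

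RPS27A, made as a fusion with ubiquitin, averaged 171 ± 9.13 FPKM with the ITGB4 siRNA and 176 ± 5.87 FPKM with the control siRNA. FAU, whose fusion partner resembles ubiquitin, averaged 115 ± 7.79 FPKM with the ITGB4 siRNA and 118 ± 11.2 FPKM with the control siRNA (SD, n = 3 each). RACK1, the signalling scaffold on the 40S head, varied least of the 3, at 218 ± 1.47 FPKM with the ITGB4 siRNA and 219 ± 1.61 FPKM with the control siRNA. The fold changes of these 3 genes ran from -0.04 to -0.01, and their groups overlapped.

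Paralogs with L summed to 154 ± 8.05 FPKM with the ITGB4 siRNA and 159 ± 5.10 FPKM with the control siRNA, most of it from RPL36AL. RPL36AL, on chromosome 14, had 76.9, 80.1 and 89.3 FPKM in si_ITGB4 libraries, against 93.9, 86.5 and 90.3 FPKM in si_NC libraries. The third si_ITGB4 library lay within the control range, and the 95% interval ran from -18.1% to 1.16%. Its parent RPL36A, on the X chromosome, had 2.0, 2.56 and 2.40 FPKM with the ITGB4 siRNA, against 1.93, 2.52 and 2.33 FPKM with the control siRNA. As counted, the paralog was 35.6 ± 3.81 times its parent in FPKM with the ITGB4 siRNA and 40.6 ± 7.38 times with the control siRNA (SD of the ratio, n = 3 each). Counted per kilobase of the annotated mRNA, the ratio was 3.86 with the ITGB4 siRNA and 4.39 with the control siRNA. RPL36A averaged 136 reads per library, and 77.6% of its mRNA lay in exons of another gene on the same strand. How such reads were assigned is not given, so its level and both ratios are uncertain.

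RPL26L1 had 32.0, 31.7 and 33.5 FPKM in si_ITGB4 libraries, against 32.2, 28.8 and 29.6 FPKM in si_NC libraries, with the first control inside the si_ITGB4 range. Its fold change was 0.10 (SE 0.055, limma adjusted p = 0.945). Its parent RPL26, which helps to regulate p53 translation, had 28.6, 32.1 and 32.7 FPKM with the ITGB4 siRNA, against 27.5, 35.7 and 34.5 FPKM with the control siRNA. The ratio of paralog to parent was 1.04 ± 0.0663 with the ITGB4 siRNA and 0.944 ± 0.196 with the control siRNA. The control ratios, 1.17, 0.805 and 0.858, spanned those of the si_ITGB4 libraries. Counted per kilobase of the annotated mRNA, the paralog was lower than its parent, at 0.376 of it with the ITGB4 siRNA and 0.340 with the control siRNA. RPL26 had 65.3% of its mRNA in exons of another gene on the same strand, so its level and these ratios are uncertain too.

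RPL22L1 had 10.5, 8.61 and 11.3 FPKM in si_ITGB4 libraries, against 8.78, 8.62 and 9.54 FPKM in si_NC libraries. Its parent RPL22, which in mice is needed for T cell development, had 24.4, 25.9 and 25.9 FPKM with the ITGB4 siRNA, against 21.5, 27.3 and 26.5 FPKM with the control siRNA. The ratio was 0.399 ± 0.0585 with the ITGB4 siRNA and 0.362 ± 0.0465 with the control siRNA, with overlap, and per kilobase of the annotated mRNA it was 0.188 with the ITGB4 siRNA and 0.170 with the control siRNA. The fold change of RPL22L1 was 0.15 with an interval of -5.29% to 30.2%, on 297 to 410 reads per library.

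RPL7L1 averaged 27.6 ± 0.866 FPKM with the ITGB4 siRNA and 27.7 ± 0.719 FPKM with the control siRNA, 0.139 ± 0.00194 and 0.142 ± 0.00336 of its parent RPL7 (0.109 and 0.111 per kilobase of mRNA). RPS27L, a p53-inducible paralog, averaged 1.46 ± 0.172 and 1.45 ± 0.117 FPKM, again with si_ITGB4 first, or 0.0133 and 0.0128 of RPS27 (0.00653 and 0.0063 per kilobase of mRNA). RPL3L, a gene of heart and skeletal muscle, had 9, 5 and 8 reads in si_ITGB4 libraries, against 10, 10 and 16 reads in si_NC libraries. These reads, not scaled for depth, did not overlap between the groups (background 5.36% of all tested genes for lower). At 5 to 16 reads per library the difference is uncertain. With a mean below 1 FPKM the gene was outside the test across genes, and the exact permutation test gave its smallest possible value, p = 0.1. RPL10L and RPL39L, known from the testis, were listed at 0.

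FPKM values of these genes depend on the length the authors divided by. The gene lengths in the deposited table equal the union of all annotated exons of GENCODE release 29 for 58724 of 58735 genes. For the ribosomal protein genes this length had a median of 2982 bases, whereas the shortest annotated mRNA with the principal coding sequence had a median of 712. RPS29 had a union length of 9845 bases and an mRNA of 296, which put it at rank 77 of 85 by FPKM and rank 62 by reads per kilobase of mRNA. RPS19 moved to rank 3, against rank 26 by FPKM, and RPL7A was first on both scales. The scale per kilobase of mRNA depends in turn on the mRNA chosen. RPL27A, with an mRNA of 4916 bases for a coding sequence of 444, had rank 68 by it, against rank 55 by FPKM. An order of genes by FPKM depends on the union length. So do, for low genes, the 1 FPKM filter and the fold change of FPKM + 1: with 0.1 added in place of 1, RPL17 was at 0.21, against 0.17, and RPS29 at -0.16, against -0.15.

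Several of the lowest 60S and 40S genes shared exons with a second gene. RPL17, RPS10 and RPL36A, among the lowest of the 77 genes that are not paralogs with L, had 91.0%, 84.0% and 77.6% of their mRNA inside exons of another gene on the same strand. The partners are the readthrough genes RPL17-C18orf32, RPS10-NUDT3 and RPL36A-HNRNPH2. RPL26 (65.3%) and RPS15A (41.5%) also shared much of their mRNA. These 5 genes averaged 0.646 (RPS10) to 31.9 FPKM (RPL26), and 1 further gene, RPS29 at 7.88 FPKM, lay under RPS15A without such sharing. The partner genes had 0 to 2 reads in each library. How reads in exons of 2 genes were assigned is not given in the sources used here, and its part in these low values was not tested. The levels of these genes are therefore uncertain, and the margins of sharing named here were chosen after the values had been seen.

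**Figure D3:**
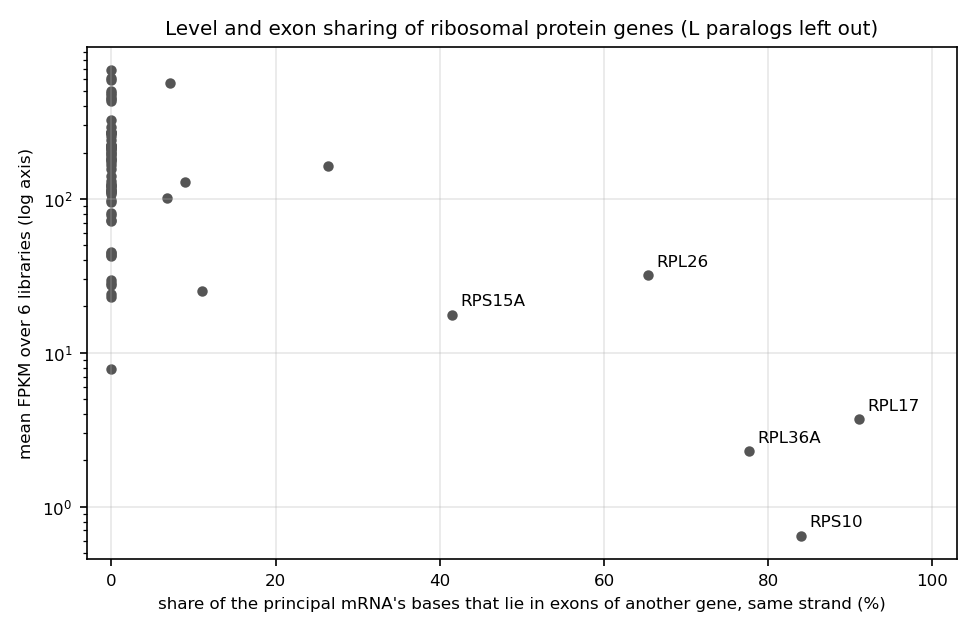
Mean FPKM over 6 libraries (log axis) of 75 of the 77 ribosomal protein genes that are not paralogs with L, against the share of the mRNA that lies in exons of another gene on the same strand. The 3 genes drawn with more than 75% shared are the 3 lowest drawn, at 0.646 (RPS10) to 3.71 FPKM (RPL17).

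Reads were also counted on pseudogenes named after these genes. Of 1144 such pseudogenes, 261, 273 and 272 had reads in the si_ITGB4 libraries, against 253, 279 and 275 in the si_NC libraries. Their reads came to 4.12%, 4.15% and 4.07% of those of the 85 genes with the ITGB4 siRNA, against 3.94%, 4.13% and 4.07% with the control siRNA. The groups overlapped, and for most genes the pseudogenes held a small share.

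For 3 genes, chosen after the values had been seen, the pseudogenes held more reads than the gene. RPL9P9, on chromosome 15, had 3337, 3883 and 3813 reads in si_ITGB4 libraries and 3234, 3841 and 3669 reads in si_NC libraries, while its parent RPL9 had 1808, 2116 and 2356 reads in si_ITGB4 and 1999, 2325 and 2178 reads in si_NC libraries. RPS28P7, on chromosome 11, had 1670, 1826 and 2215 reads in si_ITGB4 and 2219, 1912 and 1848 reads in si_NC libraries, while RPS28 had 724, 804 and 959 reads in si_ITGB4 and 1062, 804 and 850 reads in si_NC libraries. In all 6 libraries both pseudogenes had more reads than their parents. RPS10, with 11 to 35 reads per library, had 75.0% of the reads of gene and pseudogenes on pseudogenes. A near-identical copy and its parent can share reads, so the levels of these genes are uncertain.

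Adding the pseudogene reads to the parent turned the fold change of RPL9, which was 0.01 with them and -0.05 without. RPS28 was at -0.08 with them and -0.12 without, and RPL39 at -0.06 either way. RPL39P3 held 672 reads on average against 2593 for RPL39. No ribosomal protein gene was called with pseudogene reads added (0 of 81 by limma, and 0 at an unadjusted p under 0.05).

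**Figure D4:**
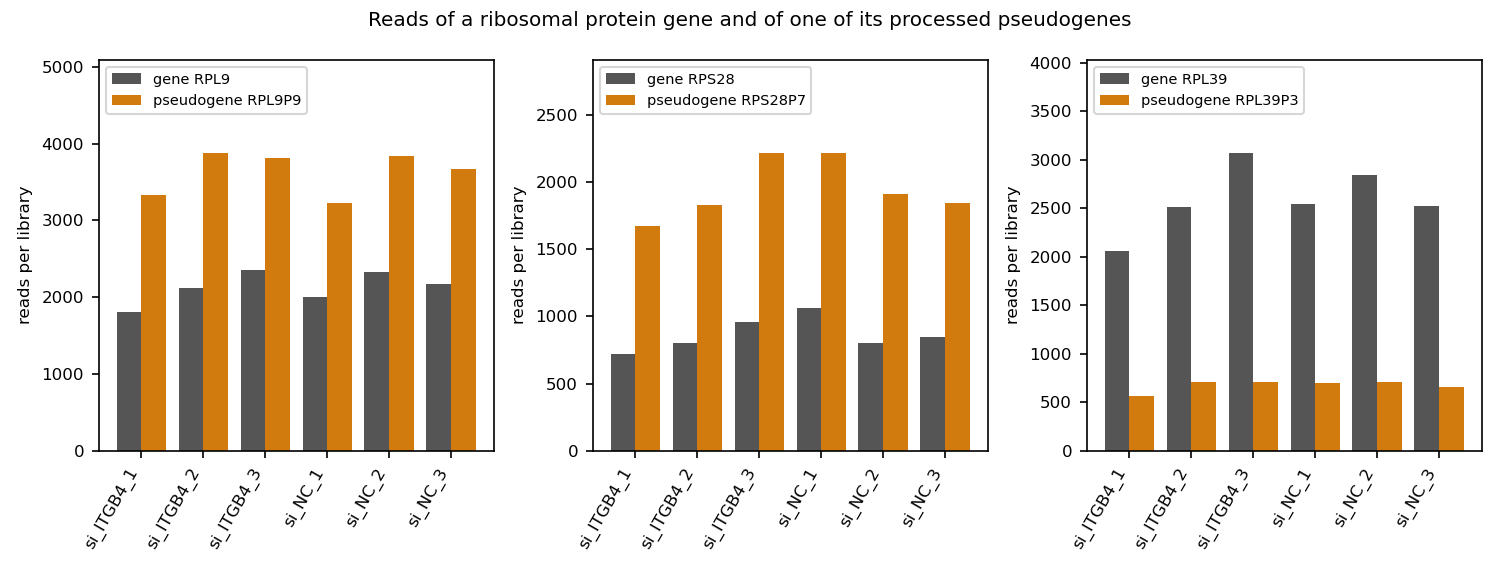
Reads per library of RPL9, RPS28 and RPL39 (grey) and of a processed pseudogene of each (orange), in the 3 si_ITGB4 libraries and then the 3 si_NC libraries. RPL9P9 and RPS28P7 exceed their parents in all 6 libraries, and RPL39P3 stays below its parent.

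Between libraries of the same group, genes with short coding sequences varied more than genes with long ones. The coefficient of variation within a group had a median of 4.91% over the 81 genes, against 8.11% over all tested genes, from 1.38% for RPL10A to 18.7% for RPL17. The 27 genes with a coding sequence of at most 398 bases had a median of 7.80% in the si_ITGB4 libraries and 6.26% in the si_NC libraries. For the 27 genes with more than 568 bases it was 2.37% and 2.99%, again with si_ITGB4 first.

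The deviation of a gene in a library, on the log2 scale, was taken from the gene's mean over the 6 libraries. In si_ITGB4 replicate 1 the 27 short genes had a median deviation of -0.10, and 1 of 27 was above its mean. In si_ITGB4 replicate 2 the median was -0.05, with 7 of 27 above. In si_ITGB4 replicate 3 it was 0.09, with 26 of 27 above. The si_ITGB4 libraries thus stood on both sides of the si_NC libraries, whose medians were 0.06, 0.03 and -0.03 with 19, 17 and 7 of 27 above.

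RPS29 deviated by -0.30, -0.09 and 0.17 in the si_ITGB4 libraries, against 0.19, 0.11 and -0.07 in the si_NC libraries. RPL39, with a coding sequence of 153 bases and chosen after its values were seen, deviated by -0.21, -0.07 and 0.19 in si_ITGB4 and by 0.00, 0.15 and -0.06 in si_NC libraries. RPL4, with 1281 bases, stayed within -0.04 to 0.03 in all 6.

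Across the 81 genes, Spearman's rho between coding length and deviation was 0.57, 0.52 and -0.61 in the si_ITGB4 libraries, and -0.29, -0.23 and 0.27 in the si_NC libraries. Over 10504 other protein-coding genes it was 0.03, 0.01 and -0.05 with the ITGB4 siRNA and -0.09, 0.08 and 0.02 with the control siRNA. The points of a library share its RNA, depth and preparation, and genes are not independent replicates. What set the lengthwise pattern was not tested.

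**Figure D5:**
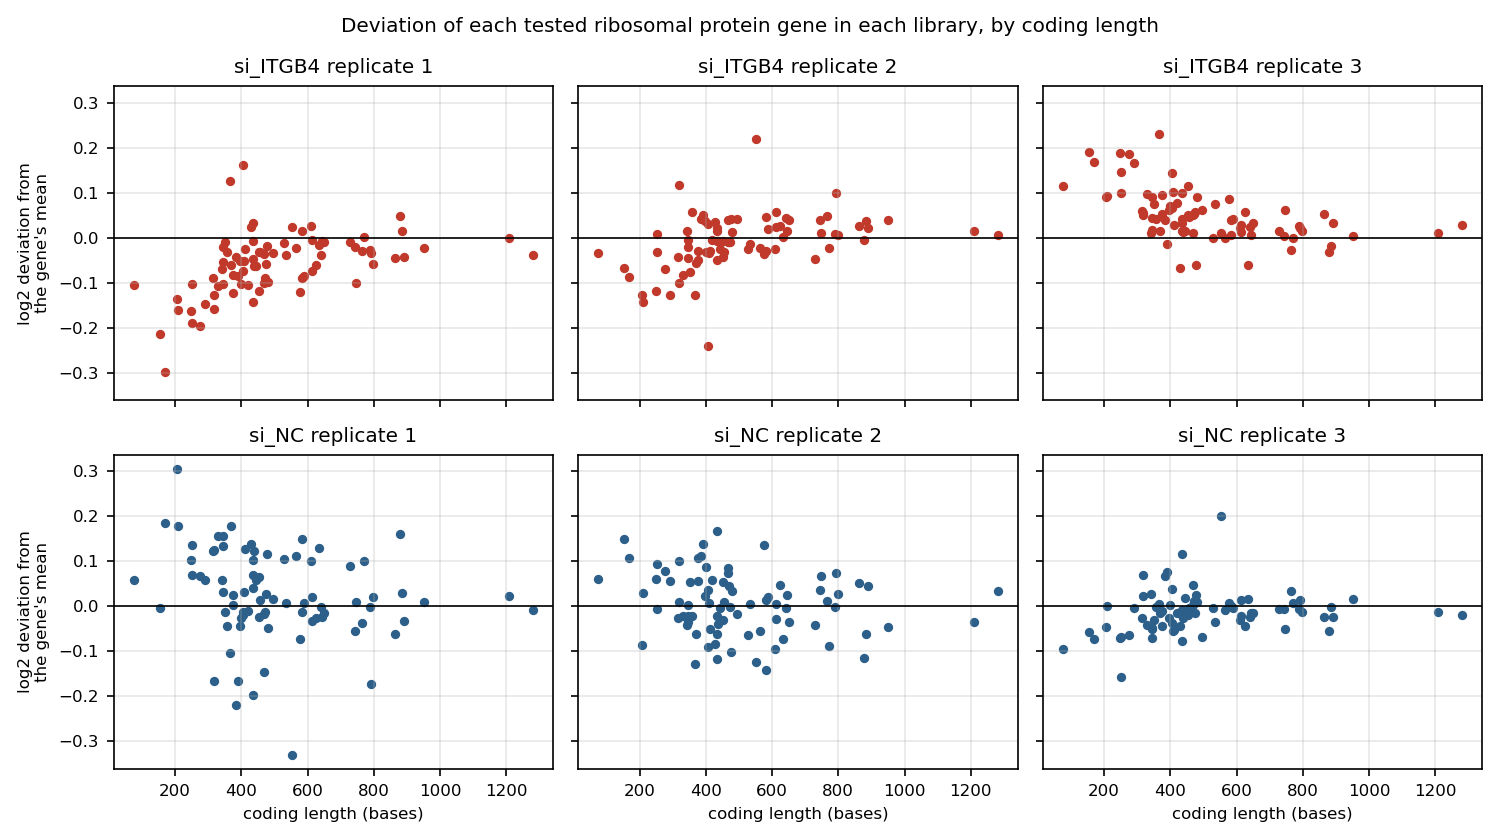
Log2 deviation of each of 81 ribosomal protein genes from its mean over 6 libraries, against coding length in bases, in 1 panel per library (si_ITGB4 above, si_NC below). Short genes lie low in si_ITGB4 replicate 1 (1 of 27 above 0) and high in si_ITGB4 replicate 3 (26 of 27 above 0). The median of the long genes stays within -0.03 to 0.02 in every library. Single long genes lie further from 0, such as RPS2 (0.16) and RPS3A (-0.17) in si_NC replicate 1.

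By GC content of the mRNA, other libraries stood apart. Of the 27 genes with the highest GC content (over 52.1%), 4, 8 and 21 were above their mean in si_ITGB4 replicates 1, 2 and 3, against 26, 3 and 5 in si_NC replicates 1, 2 and 3. Spearman's rho between GC content and deviation was 0.27, -0.08 and -0.36 in the si_ITGB4 libraries, and 0.50, -0.49 and -0.13 in the si_NC libraries. Over the other protein-coding genes it was 0.51, -0.28 and -0.21 with the ITGB4 siRNA and 0.70, -0.70 and -0.19 with the control siRNA. A difference between the 2 sets of genes was not tested for either measure.

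Which genes had an unadjusted p under 0.05 depended on single libraries. Without si_ITGB4 replicate 3, 5 of 81 genes were lower at that level (RPL36AL, RPL37, RPL38, RPS21 and RPS29), against 2.31% of all tested genes, and 0 of 81 were higher, against 2.21%. All 5 have short coding sequences, from 168 bases for RPS29 to 318 for RPL36AL. Without si_ITGB4 replicate 1 the count was 0 of 81, against 2.31% lower and 2.39% higher over all tested genes. Single genes passed that level in other fits: RPL26L1 higher (background 4.94%) and RPL26 lower (5.21%) without si_NC replicate 1, RPL22L1 higher without si_ITGB4 replicate 2 (2.09%), and RPL17 higher without si_NC replicate 3 (2.15%). No gene had an adjusted p under 0.05 by limma with any library left out, and the smallest over these fits was 0.386.

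Genes with and without a TOP start are given side by side, with no test. The median log2 fold change was -0.02 over 46 tested genes with a TOP start, 0.00 over 20 without, and 0.01 over 15 that had no RefSeq entry. Their levels overlapped widely, from 2.29 to 685 FPKM with a TOP start and from 1.45 to 491 FPKM without.

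Genes that work with the ribosomal proteins were followed in 7 lists, and limma called 0 genes in each. Of all tested genes, 2.91% were higher and 2.92% were lower with an unadjusted p under 0.05, and 48.5% were above 0, so 1 gene of a list at that level is near the background. Of 16 tested TOP mRNAs other than the 85 genes, 12 were above 0 and 4 below (median 0.03). At an unadjusted p under 0.05, 1 was higher: EIF3F, an initiation factor subunit, with 23.9, 25.3 and 24.4 FPKM in si_ITGB4 libraries, against 22.4, 23.2 and 22.1 FPKM in si_NC libraries. The groups did not overlap (background 5.75% for higher), and its fold change was 0.12 (SE 0.045, adjusted p = 0.813 by limma). EEF1D, an elongation factor subunit, was next by p at 0.08.

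Of 13 chaperones and importers of ribosomal proteins, 1 was lower at an unadjusted p under 0.05. TNPO1, transportin 1, a nuclear import receptor with ribosomal proteins among its cargoes, had 27.0, 28.2 and 27.5 FPKM in si_ITGB4 libraries, against 30.9, 37.1 and 34.2 FPKM in si_NC libraries. The groups did not overlap (background 5.36% for lower). Its fold change was -0.29 (SE 0.069, limma adjusted p = 0.514, limma-voom adjusted p = 0.0943). RPS19BP1, which binds RPS19, was at -0.09, and its groups did not overlap either.

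The assembly factors showed no gene at an unadjusted p under 0.05, out of 20 for each subunit. The smallest p belonged to NIP7 (-0.09) and NVL (0.10) for the 60S, and to PNO1 (-0.16) and DHX37 (0.12) for the 40S. Of 20 regulators of TOP mRNA translation and ribosomal protein transcription 1 was higher at that level, TBP, the TATA-binding protein, with 8.31 ± 0.216 FPKM with the ITGB4 siRNA and 7.36 ± 0.330 FPKM with the control siRNA (SD, n = 3 each, limma adjusted p = 0.783). GABPA was at -0.18. Of 8 genes of the checkpoint that links free RPL5 and RPL11 to p53 none passed that level, with MDM4 at -0.13 and CDKN1A at -0.16. Of 19 ribosome quality control genes 1 was higher, ASCC2, which acts on collided ribosomes, at 11.96 ± 0.621 FPKM with the ITGB4 siRNA and 10.6 ± 0.346 FPKM with the control siRNA (limma adjusted p = 0.794), followed by NEMF at 0.12. The groups did not overlap for DHX37, TBP, ASCC2 and NEMF (higher, background 5.75%) and for MDM4 (lower, background 5.36%). NIP7, NVL, PNO1, GABPA and CDKN1A overlapped. All these genes were named for the smallest p of their list.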

How the data were processed

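RNA-seq was compared between 3 si_ITGB4 and 3 si_NC libraries, grouped by sample title. The authors deposited FPKM values for 58735 genes, and per the submitters' processing notes the build is GRCh38. Aligner, counting tool and strand setting are not given in the sources used here. FPKM times gene length, over what 1 read is worth in that library, gave a whole number of reads (100% of values within 0.01), which recovered 13715266 to 15496274 reads per library and served the read totals and limma-voom. The authors' mean columns were not used.

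Genes averaging 1 FPKM or more were fitted as log2(FPKM + 1) with limma 3.58.1 in R 4.3.3 (limma-trend, two-sided, Benjamini-Hochberg over 12871 genes, called at an adjusted p under 0.05). Fold changes are on that log2 scale, which understates those of low genes, and intervals are 95%. The script was tested on simulated data. Single genes were also tested by exact permutation (two-sided, on mean FPKM), where 3 against 3 cannot go below 0.1. The limma p-values set the difference between the groups against the spread between these libraries. Sequences came from RefSeq, and exon lengths and overlaps from GENCODE release 29. Python 3.11.15 with pandas 2.3.3 and scipy 1.17.1 was used.

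The members, the lists and the rule for named genes were chosen with earlier results of these data known. The rule took tested paralogs with their parents, the 4 highest and 4 lowest genes, the 6 smallest p in each direction, genes set by role, ITGB4, and 2 genes per list. Alternatives were another pseudocount and filters, other scalings, a replicate block, limma-voom, added pseudogene reads, and each library left out. Some genes that the rule covers are not reported here.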

Additional observations from a re-analysis of the deposited data

How the results depend on the processing

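No ribosomal protein gene was called under the main analysis or any of 15 alternatives, and at an unadjusted p under 0.05 the count was 0 except without si_ITGB4 replicate 2 (1), si_ITGB4 replicate 3 (5), si_NC replicate 1 (2) or si_NC replicate 3 (1). The median log2 fold change of the tested ribosomal protein genes stayed between -0.02 and -0.01 under the other filters, scalings and pseudocount and with limma-voom, and between -0.04 and 0.01 with a library left out. The summed level gave -0.01 with every scaling and with pseudogene reads, and -0.03 to 0.01 with a library left out, and it has no value for the pseudocount, the filters, the replicate block or limma-voom. For the 12 genes with the smallest p, 139 values under an alternative differed from the main value at all, of which 138 had the same direction and 1 did not, RPL35, at 0.0033 without si_NC replicate 1, the upper end of its range with a library left out (lowest -0.12).

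Counts over all genes were less stable than the 6 of the main analysis. They were 0 with no low-value filter (1356 at an unadjusted p under 0.05, 31956 tested), 0 with a replicate block (1064 at an unadjusted p), 26 with limma-voom, and 0 to 7 with a library left out (523 to 1307 at an unadjusted p). ITGB4 stayed lower throughout, at -0.81 with no filter (adjusted p = 0.0618) and -0.81 with the replicate block (adjusted p = 0.0564) by limma, neither under 0.05, and at -0.87 to -0.76 with a library left out. The causes were not tested. Deviations of same-numbered libraries of both groups correlated at 0.17, 0.10 and -0.01, and those of differently numbered libraries at -0.17 to 0.09. The labels do not say that the numbers pair the libraries, so they were not taken as a pairing. With the replicate block 0 ribosomal protein genes were called (0 at an unadjusted p).

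Depth limits RPL17, RPL36A, RPS10 and RPL3L, at 5 to 167 reads per library. With 3 libraries a group, the median interval of the ribosomal protein genes reached 9.43% to either side.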

Other observations

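Introns of ribosomal protein genes hold small nucleolar RNA (snoRNA) genes, which guide the modification of ribosomal RNA. Of the 85 genes 28 hosted 60 annotated snoRNA genes, with 5 in RPL4. Their reads summed to 48, 40 and 80 in the si_ITGB4 libraries, against 81, 67 and 80 in the si_NC libraries, from the 14 snoRNA genes that had a read at all. Libraries made on poly-T beads hold few of these short RNAs, and no test was made.

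The 85 genes lay on 21 chromosomes. Chromosome 19 held 12 of them, more than any other chromosome.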
